A study of Homo sapiens with 22 samples.

Results

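WNT5B, WNT3A, LRP6, NOTCH2, HES1 and PTCH1 are 6 genes of the WNT, Notch and Hedgehog signalling pathways that the authors named as nearest to several H3R2me2a regions each. They were chosen by the authors' nearest-gene column and by their number of regions, above all in the region list called cluster III, and 24 of all 8819 regions named one of them. Their numbers of regions, and their large share in cluster III, are therefore descriptions. WNT5B had 7 regions, NOTCH2 had 5, HES1 and PTCH1 had 4 each, and WNT3A and LRP6 had 2 each.

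Regions came from chromatin immunoprecipitation and sequencing (ChIP-seq) with a rat monoclonal antibody against H3R2me2a, histone H3 asymmetrically dimethylated on arginine 2, a mark placed by the methyltransferase PRMT6. The cells were NT2/D1, a human embryonal carcinoma line that is pluripotent and can be driven to differentiate by all-trans retinoic acid (ATRA). The first library was from cells given 1 µM ATRA for 3 days and the other from cells without ATRA. Both were CRISPR/Cas9 control cells, which carry no PRMT6 deletion, and there was 1 library per condition, so no difference below has a replicate check and no p-value was computed. The other 20 samples, among them the PRMT6 deletion lines, were not analysed here. Cluster III (6519 regions) and the lists of promoter and enhancer regions were deposited under the library with ATRA. The library without ATRA is the one that clusters I (202 regions) and II (2098 regions) came with. Of 10 pluripotency marker genes, 5 were nearest to a region (POU5F1, SOX2, LIN28A, SALL4 and LEFTY1), and NANOG, DPPA4, PRDM14, ZFP42 and TDGF1 were not. Regions do not measure expression, so the cell type label could not be checked further.

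WNT proteins are secreted ligands that bind Frizzled receptors together with the co-receptor LRP6, and WNT3A is a classic activator of the branch that stabilises β-catenin, whereas WNT5B is usually placed among the ligands of β-catenin-independent signalling. NOTCH2 is a membrane receptor whose cleaved intracellular part joins the DNA-binding protein RBPJ, and HES1, a repressor of neuronal differentiation, is a classic target of that complex. PTCH1 is the Hedgehog receptor, holds the transducer SMO in check when no ligand is bound, and is itself a target of the GLI transcription factors. H3R2me2a lies next to lysine 4 of the same histone tail and is known for opposing its trimethylation at promoters, and it has also been described at enhancers.

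Regions at a transcript start were present at WNT5B, LRP6, NOTCH2, HES1 and PTCH1, and none was at the start of WNT3A. RefSeq promoter windows on GRCh38.p14 were at hand for WNT5B, WNT3A, NOTCH2, HES1 and PTCH1, with more than 1 for PTCH1 and for WNT5B. For the 4 genes whose starts had a nearby region, 1 window each is printed here as the 250 bases before the start. The authors' regions are on hg19, so the windows could not be laid over them base by base. The start used is the GRCh38 start of the transcript the authors named for HES1 (ENST00000232424 and ENST00000476918), for WNT5B (ENST00000397196) and for PTCH1 (ENST00000331920). For NOTCH2 it lies 36 bp upstream of the named transcript's start (ENST00000479412). The authors' distances on hg19 space the PTCH1 start from the other named PTCH1 starts differently than the GRCh38 annotation (GENCODE 44) does. The printed PTCH1 window may therefore not lie directly before the start the authors measured from. Capitals mark TGGGAA, the core letters of RBPJ sites, and ACCACCC, the core letters of GLI sites, on either strand.
HES1 (chr3:194135898-194136147, plus strand): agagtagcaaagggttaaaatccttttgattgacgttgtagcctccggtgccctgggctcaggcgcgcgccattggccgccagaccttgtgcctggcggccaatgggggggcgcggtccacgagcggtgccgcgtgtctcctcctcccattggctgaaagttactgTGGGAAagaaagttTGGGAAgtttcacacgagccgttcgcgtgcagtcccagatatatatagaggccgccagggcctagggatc
WNT5B (chr12:1628981-1629230, plus strand): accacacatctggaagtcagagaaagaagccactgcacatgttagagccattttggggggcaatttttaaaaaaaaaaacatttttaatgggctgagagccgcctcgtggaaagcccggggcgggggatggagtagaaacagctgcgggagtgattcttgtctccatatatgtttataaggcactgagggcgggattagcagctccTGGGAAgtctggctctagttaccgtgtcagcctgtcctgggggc
PTCH1 (chr9:95509267-95509516, minus strand): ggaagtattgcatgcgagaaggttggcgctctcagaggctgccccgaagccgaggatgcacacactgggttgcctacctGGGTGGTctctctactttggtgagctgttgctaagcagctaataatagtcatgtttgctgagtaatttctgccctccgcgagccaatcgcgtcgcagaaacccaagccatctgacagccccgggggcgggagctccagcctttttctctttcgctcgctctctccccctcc
NOTCH2 (chr1:120069663-120069912, minus strand): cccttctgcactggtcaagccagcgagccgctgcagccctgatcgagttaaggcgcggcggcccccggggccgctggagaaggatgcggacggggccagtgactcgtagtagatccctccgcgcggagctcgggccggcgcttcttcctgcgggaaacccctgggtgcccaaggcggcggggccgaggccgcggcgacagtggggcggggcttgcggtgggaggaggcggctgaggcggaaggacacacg

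The HES1 window held TGGGAA 2 times on the printed strand, beginning 84 and 70 bases before the start, and the WNT5B window held it 1 time, 44 bases before the start. TGGGAA was present in 20.8% of all 35116 promoter windows in the table. The printed PTCH1 window held the GLI letters 1 time, as the reverse complement GGGTGGT beginning 171 bases before the start, against 4.15% of all windows. Further windows at other PTCH1 starts and at another WNT5B start held none of the motifs searched. These shares are per window, so they do not give the share of genes with a motif in any of several windows. Neither the TCF/LEF letters CTTTGA (11.2% of all windows), nor the retinoic acid receptor half-site AGGTCA (12.1%), nor a pair of half-sites in the same direction 1 to 5 bases apart (0.0427%) was found in the 4 windows. All motifs were searched on both strands, and no motif overlapped another. The NOTCH2 window had 29 CG dinucleotides, the HES1 window 18, the PTCH1 window 13 and the WNT5B window 7, against a median of 11 over all windows. By this count the NOTCH2 window was at percentile 86.7 of all windows and the WNT5B window at percentile 42.4. Windows not printed had 12 to 25 CG dinucleotides at PTCH1, 10 at WNT5B and 38 at WNT3A (percentile 97.0).

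Of the 24 regions of the 6 genes, 21 were in cluster III (87.5%, exact Clopper-Pearson 95% interval 67.6 to 97.3), against 73.9% of all regions, a share that the choice of genes set in part. The remaining 3 were in cluster II and none was in cluster I. Class and distance were not part of the rule. The genes were chosen for having several regions, however, and separate regions of 1 gene cannot all lie at the same start. The shares below are therefore descriptions too, and the part of the choice in them was not tested. The promoter list held 8 of the 24 (33.3%, 15.6 to 55.3), against 48.0% of all regions, and the enhancer list held the other 16. Within 1 kb of a start lay 7 of the 24 (29.2%, 12.6 to 51.1), against 50.5% of all regions. The interval around the promoter share includes the share of all regions, and that around the share within 1 kb reaches just above it. Within 5 kb of a start the share was 54.2%, against 63.8% of all regions. By the authors' position classes 10 of the 24 were in introns, 8 in start windows, 3 intergenic, 2 in the upstream class and 1 in an exon. The median distance to a start was 4118 bp, against 933 bp over all regions. These intervals cover counting error only, and regions of one gene are not independent.

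Values are of 2 kinds. MACS tags, deposited for cluster III, are whole-number tags per region in the library with ATRA. Tagcount, deposited in the promoter and enhancer lists, is also a whole number of tags per region, but the files do not say in which library it was read. Cluster I came with the library without ATRA, and there tagcount exceeded the MACS tags of the same region by 0 to 8 (median 3), so at those 202 regions it was close to the tags without ATRA. Sequencing depth is unknown for both, so the ratio of MACS tags to (tagcount + 1) was read only against the other cluster III regions, whose median ratio was 2. A ratio was called high at 2 or more times that median.

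**Figure D1:**
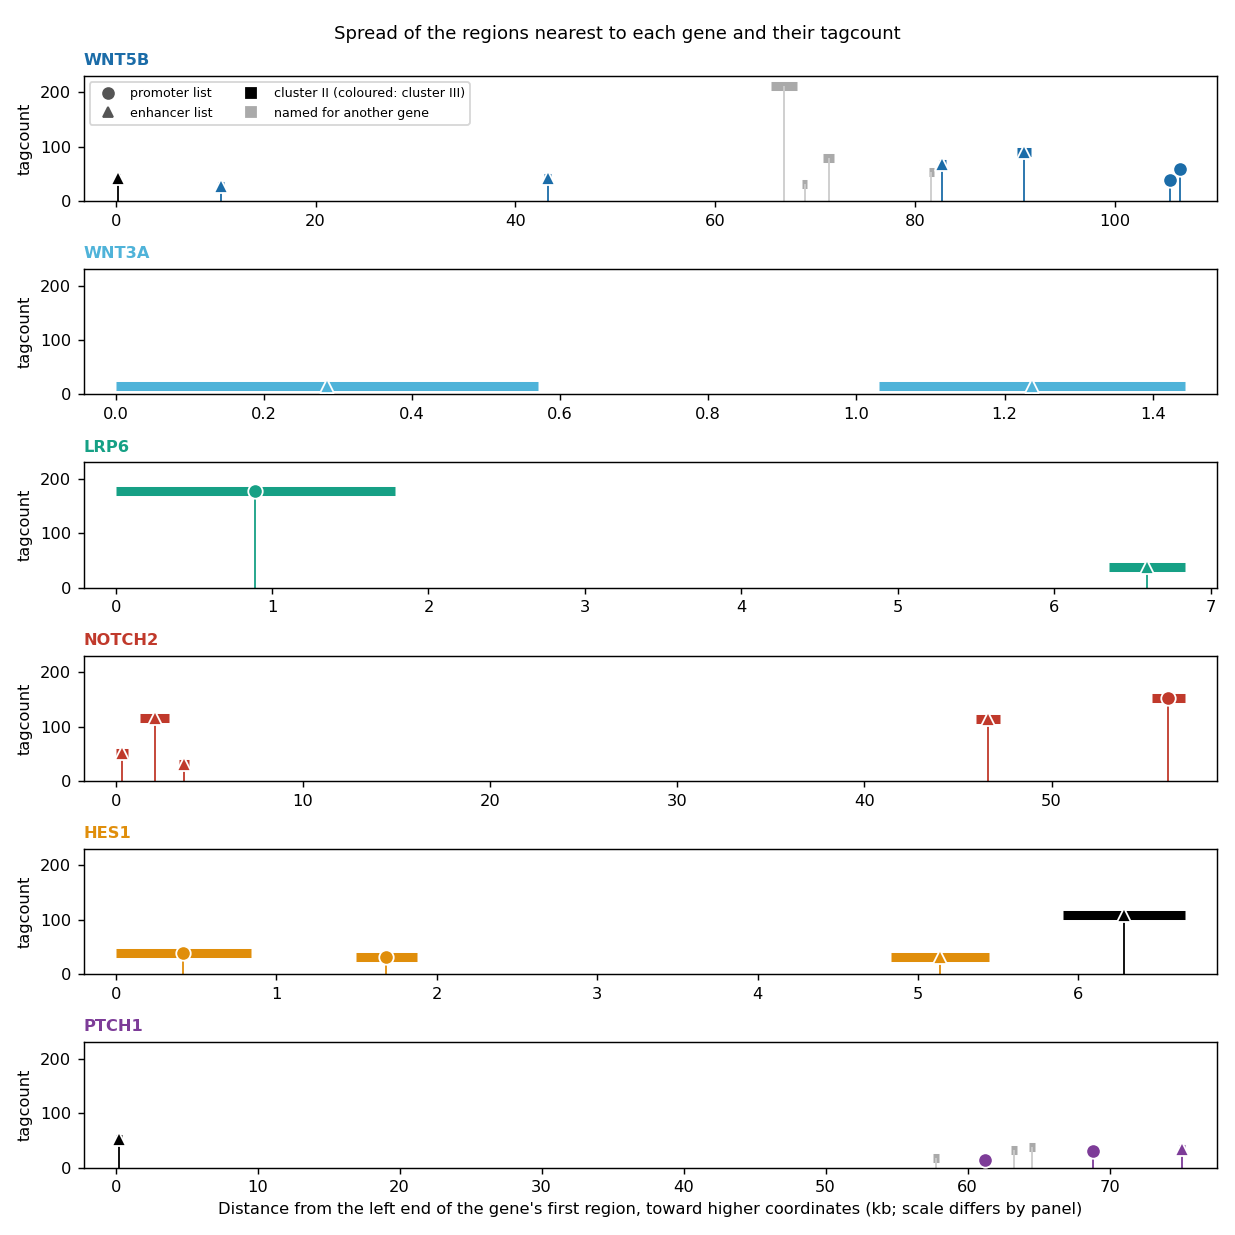
Position of each region along its locus in kb from the left end of the gene's first region (x axis, a different scale in each panel) and its tagcount (y axis). Circles are promoter-list and triangles enhancer-list regions, colours are cluster III, black is cluster II and grey regions were named for other genes; the 7 WNT5B regions spread over 107 kb, the 4 HES1 regions over 6.67 kb.

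Among the ligands, WNT5B was nearest to regions along 107 kb of the short arm of chromosome 12, at chr12:1632825-1739851. Its 6 cluster III regions began at 1643100, 1675662, 1715185, 1722978, 1737992 and 1738741 and were intronic, exonic, intronic, intronic and, for the last pair, at starts. They had, from left to right, 50, 68, 100, 149, 54 and 155 MACS tags with ATRA, against tagcounts of 27, 42, 69, 90, 38 and 60. The strongest were at a start near the right end (chr12:1738741-1739851, 155 MACS tags, exact Poisson 95% interval 132 to 181) and in an intron 2642 bp upstream of another start (149, 126 to 175). A second start region lay only 148 bp to the left of the strongest (chr12:1737992-1738592) and had 54 MACS tags (40.6 to 70.5), so neighbouring start regions of the same gene differed by more than their counting intervals. This second start region was 601 bp wide and the strongest 1111 bp, with 89.9 and 140 MACS tags per kb, so part of the gap went with width. The leftmost region was the only WNT5B region in cluster II, intergenic, 6056 bp upstream of a start, with a tagcount of 42 (30.3 to 56.8). It was among the lower cluster II regions, at percentile 14.6 of tagcount in that cluster.

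The ratios of these 6 regions were, in the same order, 1.79, 1.58, 1.43, 1.64, 1.38 and 2.54. The start region with most tags was thus above the cluster III median of 2 and the other 5 were below it. Widths ran from 545 to 1476 bp, and per kb of width the intronic region with 100 MACS tags (147 per kb, percentile 93.5) and the strongest start region (140 per kb, percentile 91.3) were highest. The authors named 6 WNT5B transcripts, so the distances of its regions refer to different starts, and RefSeq (GRCh38.p14) gives the gene a length of 30157 bp, less than the span of its regions. The strongest start region was named through ENST00000543563, which GENCODE 44 lists as a transcript without a defined coding sequence, and its neighbour through the protein-coding ENST00000397196. Between the WNT5B regions lay 4 regions that the authors named for FBXL14, a ubiquitin ligase subunit gene, which made 11 regions in the span. The FBXL14 region at chr12:1698421-1701036 had 289 MACS tags and a tagcount of 212, more than any WNT5B region. Another FBXL14 region, in cluster II at chr12:1714190-1714710, lay immediately left of the intronic WNT5B region at chr12:1715185-1715866, so the nearest-gene name divides neighbouring regions between the genes.

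WNT3A had the highest tag ratio of the 6 genes. Its 2 regions were neighbours in an intron on chromosome 1, at 34400 and 35426 bp from the start the authors named, and 459 bp apart. The first (chr1:228228933-228229503) had 144 MACS tags with ATRA (121 to 170) and a tagcount of 16 (9.15 to 26.0). The second (chr1:228229963-228230377) had 47 MACS tags (34.5 to 62.5) and a tagcount of 15 (8.40 to 24.7). The tagcounts overlapped in their intervals and the MACS tags did not. The quotient of MACS tags and tagcount was 9 at the first (exact 95% interval 5.36 to 16.2) and 3.13 at the second (1.72 to 6.03), and these intervals overlapped. The ratio with 1 added to tagcount was 8.47 at the first region, at percentile 97.4 of cluster III, and 2.94 at the second, at percentile 74.5. The first was the only high ratio among the 21 cluster III regions of the 6 genes, against 15.3% of all cluster III regions called high, and no ratio was at or below the median divided by 2, against 2.10%. As a share, 1 of 21 is 4.76% (exact Clopper-Pearson 95% interval 0.120 to 23.8), an interval that includes 15.3%. By MACS tags per kb the first WNT3A region was the highest of the 21, with 252 per kb at percentile 99.6 of cluster III.

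Summed over cluster III regions, WNT3A had 191 MACS tags against a tagcount of 31, a quotient of 6.16 (exact 95% interval 4.20 to 9.32). The same quotient was 2.41 (1.84 to 3.17) at PTCH1, 1.86 (1.46 to 2.39) at HES1, 1.84 (1.56 to 2.18) at LRP6, 1.77 (1.54 to 2.03) at WNT5B and 1.44 (1.28 to 1.63) at NOTCH2, and 2.14 over all of cluster III. The WNT3A interval lay above all the others, and the intervals of PTCH1, HES1, LRP6 and WNT5B overlapped each other. That of NOTCH2 overlapped those of HES1, LRP6 and WNT5B and lay below that of PTCH1. These intervals assume that the columns come from separate libraries, cover counting error only and were not tested.

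**Figure D2:**
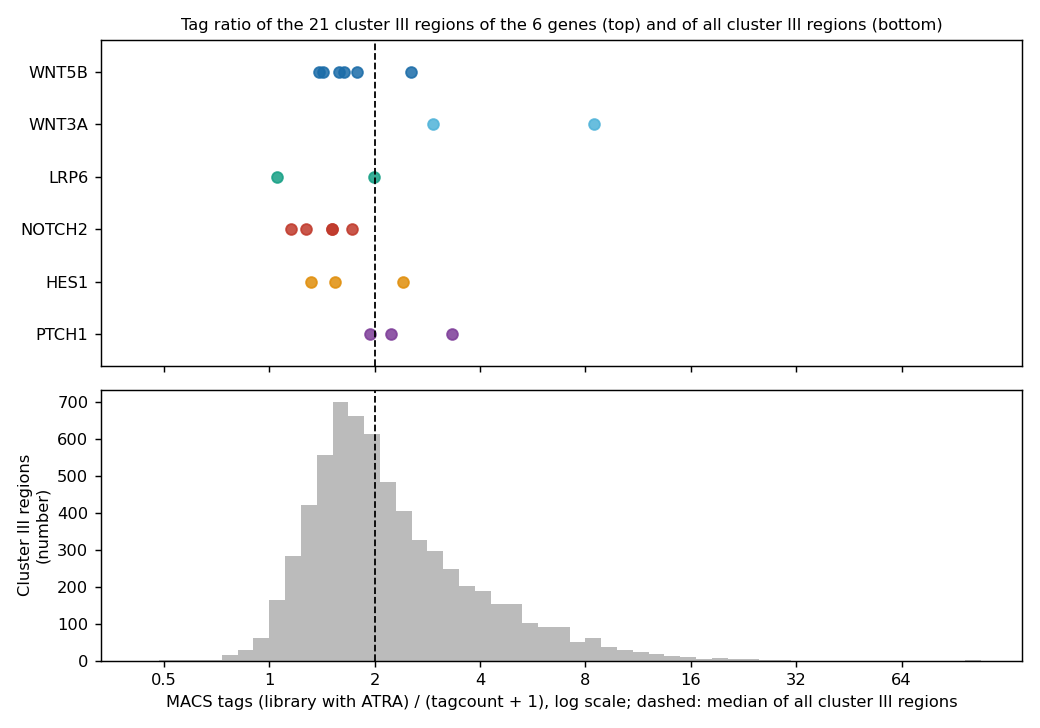
Ratio of MACS tags to (tagcount + 1) on a log axis for the 21 cluster III regions of the 6 genes (top, 1 point per region) and the number of all 6519 cluster III regions at each ratio (bottom); the dashed line is their median, 2. One WNT3A region lies at 8.47, and all 5 NOTCH2 regions lie between 1.15 and 1.72.

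The co-receptor gene LRP6 had the strongest single region of the 6 genes. At its start (chr12:12419320-12421104, 198 bp upstream) it had 357 MACS tags with ATRA (321 to 396), at percentile 99.8 of cluster III, against a tagcount of 178 (153 to 206). Its ratio of 1.99 was at percentile 49.9, and its width of 1785 bp was at percentile 99.5 of all regions. Per kb of width it still had 200 MACS tags, at percentile 98.8. The second LRP6 region, intergenic and 6052 bp upstream (chr12:12425668-12426159), had 41 MACS tags (29.4 to 55.6) and a tagcount of 38 (26.9 to 52.2). Its ratio of 1.05, at percentile 2.69, was the lowest of the 21, and its counts in both columns overlapped. The intervals of the MACS tags at the start region and the upstream region of LRP6 did not overlap. The quotient of MACS tags and tagcount was 2.01 at the start region (exact 95% interval 1.67 to 2.41) and 1.08 at the upstream region (0.677 to 1.72), and these intervals overlapped.

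LRP6 and WNT5B are both on the short arm of chromosome 12, which held 640 of the 1030 regions on that chromosome. Cluster III regions on the arm had a median of 68 MACS tags and a ratio of 1.49, against 49 and 2.05 elsewhere, and their median width was 694 bp, against 506 bp. The 8 cluster III regions of WNT5B and LRP6 had medians of 84 MACS tags and a ratio of 1.61, and the 13 of the other 4 genes had medians of 62 MACS tags and 1.72. The part of the arm in the values of WNT5B and LRP6 was not tested.

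**Figure D3:**
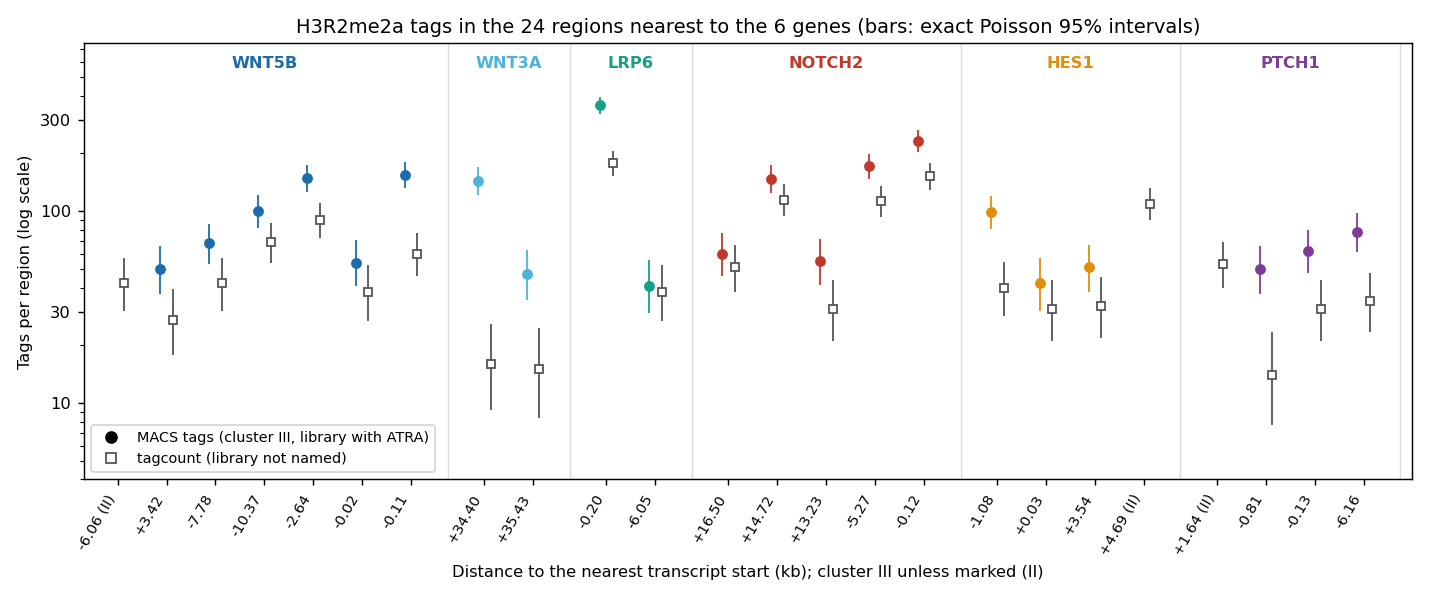
MACS tags with ATRA (filled circles, cluster III regions only) and tagcount (open squares) of each of the 24 regions, on a log axis with exact Poisson 95% intervals, ordered along the chromosome within each gene. Labels give the authors' signed distance to a start in kb, negative upstream; the LRP6 start region is highest, with 357 MACS tags.

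The receptor gene NOTCH2 had 5 regions, all in cluster III, over 57.15 kb of chromosome 1. A group of 3 lay within an intron, 13230 to 16501 bp from a start, at chr1:120555721-120559627, with gaps of 649 and 510 bp. They had 60, 148 and 55 MACS tags with ATRA, against tagcounts of 51, 115 and 31, so the middle region stood above its flanks in both columns. Another intronic region at chr1:120601697-120602944, 5272 bp upstream of a start, had 172 MACS tags (147 to 200) and a tagcount of 113 (93.1 to 136). The start region at chr1:120611064-120612870 had 232 MACS tags (203 to 264) and a tagcount of 153 (130 to 179), the highest of the gene in both columns.

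The start region and the middle region of the intronic group were 1807 and 1549 bp wide, at percentiles 99.5 and 99.2 of all regions, and the flanking regions were 657 and 542 bp wide. Per kb of width the intronic group had 91.3, 95.5 and 101 MACS tags, against 138 at the region 5272 bp upstream and 128 at the start region, so per kb the middle region did not stand above both of its flanks. Ratios at NOTCH2 were 1.15, 1.28, 1.72, 1.51 and 1.51 from left to right, all below the cluster III median. NOTCH2 has near-identical partial copies on chromosome 1 (the NOTCH2NL genes), and the sources used here do not say how reads that align to several places were counted. The authors named NOTCH2NL for 3 further cluster III regions, with 64, 183 and 354 MACS tags and tagcounts of 51, 108 and 235. The NOTCH2 values are therefore uncertain as values of that gene alone.

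HES1, the target gene of Notch signalling, had 4 regions within 6.67 kb of chromosome 3. Upstream of the start, chr3:193852309-193853154 (1082 bp) had 99 MACS tags with ATRA (80.5 to 121) and a tagcount of 40 (28.6 to 54.5). At the start, chr3:193853804-193854186 (33 bp) had 42 MACS tags (30.3 to 56.8) and a tagcount of 31 (21.1 to 44). The upstream region was above the start region in MACS tags beyond the counting intervals, whereas the tagcounts overlapped. Their ratios were 2.41 and 1.31, and their widths 846 and 383 bp. Per kb of width they were close, with 117 and 110 MACS tags.

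The other HES1 regions lay 3541 and 4694 bp beyond the start, which is past the end of a gene that RefSeq (GRCh38.p14) gives as 2585 bp long, although the authors classed them as upstream. The first (chr3:193857140-193857754) had 51 MACS tags (38.0 to 67.1) and a tagcount of 32 (21.9 to 45.2). The second (chr3:193858215-193858975), 460 bp further on, was in cluster II and had a tagcount of 109 (89.5 to 131), at percentile 73.6 of that cluster. By tagcount this enhancer-class region past the gene was the highest HES1 region and its interval lay above those of the others. It has no MACS tags, so the order by MACS tags covers only the other 3 regions.

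PTCH1, the Hedgehog receptor gene on chromosome 9, had start regions at alternative transcripts. The region at chr9:98271330-98271865, 806 bp upstream of a start, had 50 MACS tags with ATRA (37.1 to 65.9) and a tagcount of 14 (7.65 to 23.5), with a ratio of 3.33 at percentile 79.4. The region at chr9:98278799-98279493, 133 bp upstream of another start, had 62 MACS tags (47.5 to 79.5) and a tagcount of 31 (21.1 to 44), with a ratio of 1.94. The first of these had the lowest tagcount of the 24 regions, and their MACS tags overlapped.

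An intergenic PTCH1 region at chr9:98285259-98285675, 6163 bp upstream, had most MACS tags of the gene (78, 61.7 to 97.3) and a tagcount of 34 (23.5 to 47.5). It was only 417 bp wide, with 187 MACS tags per kb, at percentile 98.4 of cluster III, whereas the start regions had 93.3 and 89.2 per kb. The remaining region, at chr9:98210338-98210753, was intronic, 1637 bp from the start of a short transcript that GENCODE 44 lists as a retained intron, and lay in cluster II with a tagcount of 53 (39.7 to 69.3). It was 60576 bp from the next PTCH1 region, so the regions near the starts and this one formed separate groups. Between and beside the start regions lay 3 regions that the authors named for the non-coding genes RP11-435O5.4 and RP11-435O5.5, with tagcounts of 18 to 38.

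Over the 21 cluster III regions, MACS tags with ATRA ran from 41 to 357 with a median of 68, against a median of 50 over all of cluster III. At or above that median were 18 of 21 (85.7%, exact 95% interval 63.7 to 97.0), against 50.8% of all cluster III regions. The 3 below the median were the WNT3A region with 47 MACS tags, the start region of HES1 and the upstream region of LRP6. The genes were chosen by number of regions in these same data, which may bear on this share and on the widths below and was not tested. Regions of one gene are also not independent. Regions of these genes were also wider, with 18 of the 24 (75%, 53.3 to 90.2) at or above the median width of all regions (513 bp), against 50.2% of all regions, and a median of 636 bp. MACS tags and width rose together over the 6519 cluster III regions (Spearman's rho 0.84, a description across regions that share a library). Per kb of width the 21 regions had a median of 101 MACS tags, against 97.3 over cluster III.

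**Figure D4:**
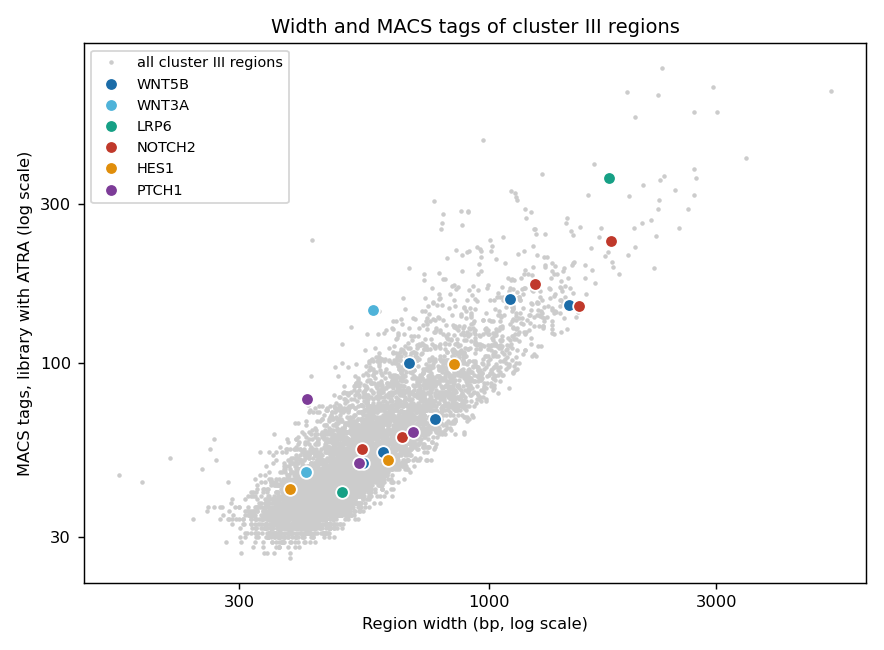
Width in bp (x axis) and MACS tags with ATRA (y axis) of cluster III regions, both on log axes, with the 21 regions of the 6 genes in colour over all 6519 in grey. The first WNT3A region (571 bp, 144 MACS tags) and the intergenic PTCH1 region (417 bp, 78 MACS tags) lie at the upper edge of the grey cloud for their width.

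The ratio of MACS tags to (tagcount + 1) had a median of 1.64 over the 21 regions, against 2 over cluster III, and 15 of 21 (71.4%, 47.8 to 88.7) were below that median, against 49.9% of all cluster III regions, a share that the interval includes. In the promoter list the 8 regions of these genes had a median ratio of 1.97, against 1.72 over all promoter-list regions of cluster III. In the enhancer list the 13 had a median of 1.58, against 2.51 over all enhancer-list regions of cluster III. The median ratio of the 6 genes was thus below that of its class in the enhancer list and above it in the promoter list, and neither difference has a replicate error. The 13 enhancer-list regions had a median tagcount of 38, against 20 over all enhancer-list regions of cluster III.

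At the 3 cluster II regions the authors gave a pair of intervals each, and the files do not say which library each interval came from. The second interval was wider in each case, with 884 bp against 443 bp at WNT5B, 942 against 761 bp at HES1 and 618 against 416 bp at PTCH1. Between 97.6% and 100% of the first interval lay inside the second. No MACS tags were at hand for these regions.

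Of 143 genes in lists of the WNT, Notch and Hedgehog pathways, 39 were named by a region, and 33 of these were not among the 6 genes. The share of all annotated genes named by a region was not computed. This count and those of the single lists below are therefore descriptions and do not show whether pathway genes were named more or less often than others. The 33 had 45 regions, and 27 of the genes had 1 region only. Cluster III regions were nearest to 27 of the 33, cluster II regions to 7 and a cluster I region to 1. The median of their 37 cluster III regions was 47 MACS tags, with a median ratio of 1.93. The share of all named genes with a cluster III region was 73.2%, and 18.1% of all 6697 named genes had 2 or more regions. By number of regions, BCL9 (5), ROR2 (4), GLI1 (3), CTNNB1, WLS and GLI2 (2 each) were as well covered as the 6 genes or nearly so, and were not in the choice.

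In the WNT list 20 of 75 genes were named. BCL9, a β-catenin cofactor gene, had 5 cluster III regions, the strongest at a start on chromosome 1 (143 MACS tags with ATRA, tagcount 134), and ROR2, a WNT receptor tyrosine kinase gene, had 4 enhancer-list regions, the strongest with 101 MACS tags and a tagcount of 16. CTNNB1, the β-catenin gene, had 1 region in cluster III and 1 in cluster II, and WLS, needed for WNT secretion, had 2 in cluster III. Single cluster III regions were nearest to FZD1, FZD2, FZD8, LRP5, LGR6, SFRP1, SFRP4, SFRP5, AXIN2, TCF7L1 and TCF7L2, and single cluster II regions to WNT7A and RSPO4. The LRP6 start region had most MACS tags of the whole WNT list.

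In the Notch list 12 of 47 genes were named, and the NOTCH2 start region had most MACS tags. Components of the cleavage machinery (NCSTN, APH1A) and the ubiquitin ligase gene DTX2 had cluster II start regions, with tagcounts of 44, 69 and 128. NOTCH1, the paralogue of NOTCH2, had an intronic cluster I region with 34 MACS tags without ATRA and a tagcount of 35. JAG1, RBPJ, MAML3, HEYL, NRARP and LFNG had 1 cluster III region each. In the Hedgehog list 7 of 21 were named, and the intergenic PTCH1 region had most MACS tags. GLI1 had 3 promoter-list regions and GLI2 had 2 regions, and SMO, GLI3 and BOC had 1 each.

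**Figure D5:**
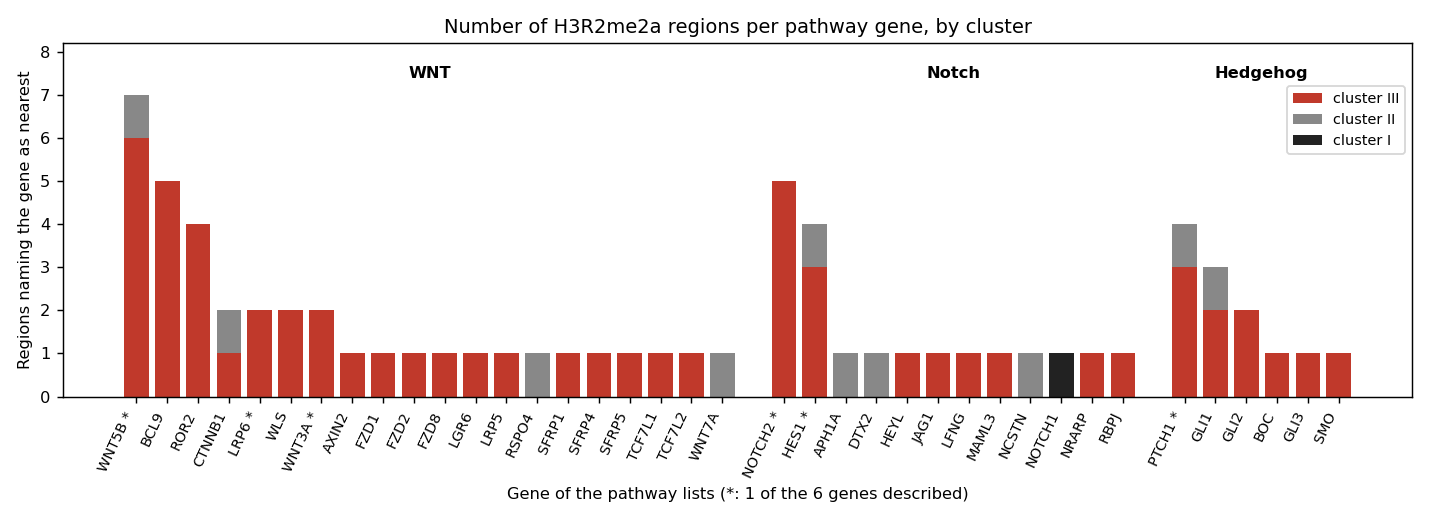
Number of regions that name each gene of the 3 pathway lists as nearest (y axis), stacked by cluster, for 38 of the 39 genes with at least 1 region, with an asterisk at the 6 genes described. WNT5B has the most, 7, and 26 of the 32 other genes shown have 1.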

How the data were processed

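The 5 region lists of the H3R2me2a libraries of control NT2/D1 cells, with and without ATRA, were used. Both value columns (MACS tags and tagcount) hold unscaled counts of tags, as the authors deposited them. bcl2fastq, Bowtie2, MACS 1.4 and deepTools on hg19 are named in the submitters' processing notes, without role or order. The sources used here give no depth, peak-calling control or cluster criteria. The authors' start class reaches 1250 bp and their upstream class 5000 bp from a start, per the file headers.

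Promoter and enhancer lists were joined to the clusters on chromosome, start and stop, and in cluster II the first interval was used. Regions were taken by gene name. All regions of the 6 genes are described, and the other pathway genes are named once, except 1 that is counted but not reported here. The genes and lists were chosen with earlier results of these data known. Counts carry exact Poisson and shares exact Clopper-Pearson 95% intervals (SciPy 1.17.1), which cover counting error only and were checked on simulated data. Of 17 transcripts named for the 6 genes, 15 were found in GENCODE 44. Regions within 10000 bp were searched for other names. Chromosome 12 was split at 36000000 bp. Coordinates of GRCh38 and hg19 were never compared, only the spacing of the PTCH1 starts in each.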

Additional observations from a re-analysis of the deposited data

How the results depend on the processing

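No paired analysis was possible because there was 1 library per condition. Shares and medians over the regions of the 6 genes stayed within their 95% intervals under a stricter tag threshold and without each gene in turn, when the median MACS tags ran from 62 to 83.5 and the median ratio from 1.56 to 1.86. The tag threshold raises median MACS tags by its construction, here to 88.5, against 69 over all of cluster III. Median width under it was 695 bp, against 643 bp over all regions, a smaller gap than without it. The cluster III and promoter-list shares did so with regions under 1000 bp apart merged (18 regions), and the median ratio with 5 added to both columns, which were run for these results only. Overlap in place of identical coordinates left both shares unchanged. It was no check of them, because every region already matched a cluster region by identical coordinates. Per kb of width the median MACS tags of the 6 genes were 1.04 times that of cluster III, closer than the medians per region (68 and 50). Larger shifts were in the pathway genes named, 22 rather than 39 when only regions at or above the median tags of their cluster were kept (26 within 5000 bp of a start), and in the share of the 24 regions near a start, 54.2% within 5000 bp rather than 29.2% within 1000 bp (63.8% over all regions). Under the tag threshold WNT3A and LRP6 kept 1 region each. Without the short arm of chromosome 12, chosen after seeing the data, the medians were 62 MACS tags and a ratio of 1.72. The cause of these shifts was not tested. Depth is unknown, and tagcounts of 14 to 16 carry wide counting intervals.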
